A study of Mus musculus with 16 samples.

Results

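The genes described here are 9 that naive, recirculating and stem-like T cells are known for: Ccr7, Tcf7, Lef1, Klf2, S1pr1, Il7r, Bach2, Satb1 and Foxp1. They were matched by symbol to a table of read counts for 53465 mouse genes, and all 9 were found and passed the filter on low counts that left 18251 genes for testing. The table holds bulk RNA-seq of 16 MC38 tumors, 1 per mouse. MC38 is a mouse colon carcinoma line, grown here under the skin of the flank of female C57BL/6 mice of 6 to 8 weeks after an injection of MC38 cells. The mice carried no engineered allele that the labels name, so all groups share the same host strain and tumor line.

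From day 16, when tumors measured 150 to 250 mm3, 8 mice received a control IgG and 8 received an antibody against PD-1 (aPD-1), an inhibitory receptor of T cells, as 200 ug doses on days 16 and 20. All tumors were taken on day 21. The aPD-1 tumors were divided after treatment into 6 non-responders (NR) and 2 responders (R). That division was made from staining of CD8 T cells in the same tumors, so a level of T cell RNA is not independent of it, and only 2 tumors stand for response. Each tumor was cut, with a part frozen for RNA and the rest fixed for the stained sections. The samples are sections of the frozen part, unsorted by cell type. In them, a lower level from fewer cells of a type and a lower level from less RNA per cell cannot be told apart.

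Naive T cells circulate between blood and lymph nodes. CCR7 guides them in along the chemokines CCL19 and CCL21, S1PR1 guides them out toward sphingosine-1-phosphate, and the transcription factor KLF2 maintains the expression of S1pr1. IL-7, read through IL7R, keeps naive and memory T cells alive, while TCF1 (the protein of Tcf7), LEF1, BACH2, SATB1 and FOXP1 are transcription regulators of the naive, quiescent or self-renewing state. In tumors, T cells that keep TCF1 are known as the stem-like pool from which effector cells arise. Several of these genes are also used outside T cells: Klf2 and S1pr1 by endothelium, Bach2 and Foxp1 by B cells, Ccr7 by mature dendritic cells.

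Total counts lay between 26603497 and 39948901 per tumor. In IgG replicate 3, 20.4% of counts came from 1 gene, CT010467.1, and the scaling factor (TMM) of that tumor was 0.784. The top gene of any other tumor held at most 2.19%. The 9 genes were well counted, from at least 43 counts for Bach2 and 68 for Ccr7 in the tumor with the fewest to 3773 for Foxp1 in the tumor with the most. The share of counts from mitochondrial genes was 5.73% to 7.60% in 3 tumors (IgG replicate 1 and NR replicates 9 and 14) and 2.52% to 3.25% in the other 13. Of 7 markers of colon epithelium, 6 were near 0 in the IgG and NR tumors: Krt18 reached at most 1.80 CPM (counts scaled to a common library size), Krt8 at most 1.37, Krt19 at most 1.31, Epcam at most 0.942, Vil1 at most 0.283 and Cdx2 at most 0.0259. The remaining one, Cdh1, was at 3.75 to 8.12 CPM. In the responders Krt8, Krt18 and Krt19 lay between 11.3 and 33.3 CPM, Epcam at 5.31 and 10.6 and Cdh1 at 8.55 and 9.79, while Vil1 reached at most 0.141 and Cdx2 was at 0 in both.

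In GRCm38, with GENCODE mouse release 21 annotation, Bach2 lies on chr4:32238804-32586108 (plus strand) and Klf2 on chr8:72319033-72321656 (plus strand). Windows of 250 bases before an annotated start came from RefSeq (GRCm38.p6) for 7 of the 9 genes. Motif letters were counted in the whole windows, parts of which lie in exons that GENCODE gives for Klf2, Il7r and Foxp1, and what is shown stops before such an exon. The Tcf7 window holds an ATG with no stop codon after it in the same frame, so part of it may be coding. Sequence is shown for Bach2, the gene with the largest difference between R and NR, and for Klf2, whose difference rests on 1 responder. The Bach2 stretch (chr4:32417185-32417434, 250 bases, plus strand) precedes a start inside the annotated gene. The Klf2 stretch (chr8:72318812-72319032, 221 bases, plus strand) ends at the last base before the first annotated exon. Both read 5′ to 3′, and capitals mark matches on either strand to letters searched for ETS factors (CCGGAAG) in Bach2 and for KLF factors (CCNCNCCC) in Klf2.
Bach2: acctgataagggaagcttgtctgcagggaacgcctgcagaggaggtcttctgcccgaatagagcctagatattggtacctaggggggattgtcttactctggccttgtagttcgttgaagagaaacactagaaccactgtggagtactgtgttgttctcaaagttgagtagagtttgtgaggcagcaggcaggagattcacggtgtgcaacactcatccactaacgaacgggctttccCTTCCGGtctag
Klf2: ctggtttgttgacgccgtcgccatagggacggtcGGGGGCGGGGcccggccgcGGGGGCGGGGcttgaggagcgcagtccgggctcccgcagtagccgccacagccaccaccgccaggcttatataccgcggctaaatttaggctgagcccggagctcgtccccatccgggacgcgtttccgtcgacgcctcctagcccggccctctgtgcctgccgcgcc

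The ETS letters occurred in the 250-base window of 1 of the 7 genes and in 7.07% of the windows of 27025 genes. The KLF letters occurred in 5 of the 7 and in 45.6% of all windows, with the 4 matches of Klf2 overlapping in 2 stretches. The letters searched for FOXO factors (TGTTTAC) and for TCF and LEF factors (CTTTGAT) occurred in none of the 7 windows, against 3.06% and 3.26% of all windows. A match describes the letters only.

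The first comparison asked how the genes differed between R and NR. In all, 7 of the 9 were called higher in R and none lower, beside 12.5% of all 18251 genes called higher and 0.663% called lower. Calls required a log2 fold change beyond 1 in either direction and, in the quasi-likelihood test of edgeR, a p below 0.05 after Benjamini-Hochberg adjustment over all genes. The median log2 fold change of the 9 was 1.81, against 0.02 over all genes. Both responders exceeded each of the 6 NR tumors for the same 7 genes, which held for 21.5% of all genes.

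**Figure D1:**
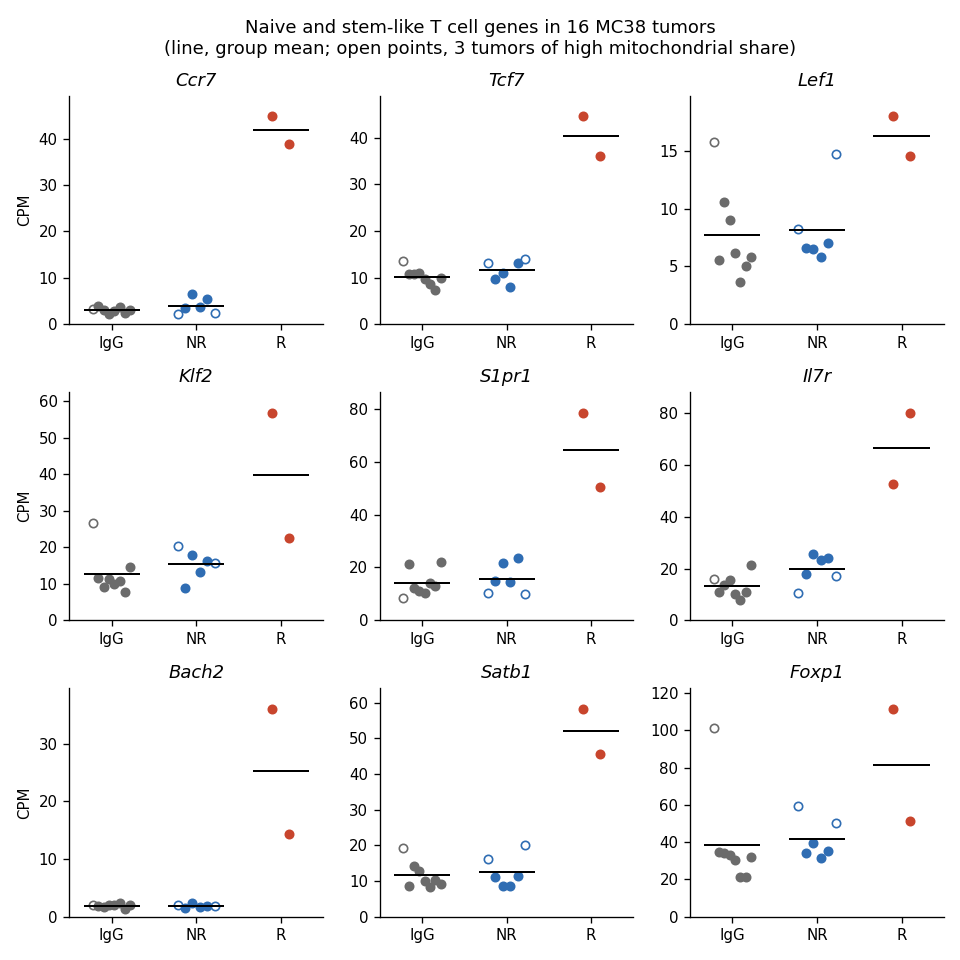
CPM of the 9 genes (y axes, from 0) in each IgG, NR and R tumor, with lines at group means and open points for the 3 tumors of high mitochondrial share. Both responders lie above all other tumors for Ccr7, Tcf7, S1pr1, Il7r, Bach2 and Satb1, while IgG replicate 1 reaches 26.6 CPM of Klf2 and 101.1 CPM of Foxp1.

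Among the receptors of traffic, Ccr7 was at 38.8 and 44.8 CPM in the responders. In the NR tumors it ranged from 2.11 to 6.39 CPM with a median of 3.61, and in the IgG tumors from 2.16 to 3.91 with a median of 3.09. Every tumor outside the responders thus stood far below them, and the log2 fold change of R over NR was 3.42 ± 0.30 (SE, edgeR adjusted p = 5.78e-07). S1pr1, the exit receptor, was at 50.5 and 78.6 CPM in the responders, against 9.82 to 23.6 in NR (median 14.6) and 8.32 to 22.0 in IgG (median 12.5). The groups did not overlap, and its log2 fold change was 2.03 ± 0.34 (edgeR adjusted p = 0.000390).

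Klf2 was split within the responders, at 56.9 CPM in R replicate 15 and 22.6 CPM in R replicate 16. The NR tumors ranged from 8.84 to 20.3 CPM (median 16.0) and the IgG tumors from 7.87 to 26.6 (median 11.1), so R replicate 16 was below the highest IgG tumor. The log2 fold change over NR was 1.37 ± 0.38 (edgeR adjusted p = 0.0173). Without R replicate 15 it was 0.49 and no longer called (edgeR adjusted p = 0.714). The other 6 genes kept their calls without that tumor, beside 4.62% of all genes called higher.

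Il7r was at 52.8 CPM in R replicate 15 and 80.3 CPM in R replicate 16, the only one of the 9 genes that was higher in replicate 16. The NR tumors held 10.7 to 25.7 CPM (median 20.6) and the IgG tumors 7.68 to 21.4 (median 12.2). The log2 fold change of R over NR was 1.75 ± 0.31 (edgeR adjusted p = 0.000659).

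Tcf7, the gene of TCF1, stood at 36.2 and 44.6 CPM in the responders, above the 8.00 to 14.02 CPM of NR (median 12.1) and the 7.42 to 13.5 of IgG (median 10.3). Its log2 fold change of 1.81 ± 0.20 was among the tightest of the set (edgeR adjusted p = 5.16e-06). Lef1, which encodes the related factor, overlapped between groups: the responders were at 14.6 and 18.0 CPM, NR replicate 14 at 14.8 and IgG replicate 1 at 15.8, while the medians were 6.80 in NR and 5.99 in IgG. Its log2 fold change of 1.00 ± 0.43 did not pass (edgeR adjusted p = 0.118).

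Bach2 showed the largest ratio of the set. It was at 14.4 and 36.1 CPM in the responders, against 1.43 to 2.30 in NR (median 1.83) and 1.27 to 2.36 in IgG (median 1.99). The log2 fold change over NR was 3.76 ± 0.26 (edgeR adjusted p = 5.81e-08), and without R replicate 15, which held 2.51 times the Bach2 of R replicate 16, it was 2.88. Satb1, a chromatin organizer of T cells, was at 45.6 and 58.2 CPM in the responders, above NR (8.45 to 20.1, median 11.2) and IgG (8.25 to 19.2, median 10.2). Its log2 fold change was 2.04 ± 0.31 (edgeR adjusted p = 0.000141). Foxp1, the most counted of the 9, was at 51.5 and 111.5 CPM in the responders, 31.5 to 59.6 in NR (median 37.3) and 21.1 to 101.1 in IgG (median 32.7). These groups overlapped, and the log2 fold change of 0.97 ± 0.45 did not pass (edgeR adjusted p = 0.156).

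For both genes that did not pass, the highest value outside the responders was in IgG replicate 1, whose mitochondrial share was 7.60%. Without the 3 tumors of high mitochondrial share, a fit added after seeing the data, all 9 genes were called higher than NR, beside 12.8% of all genes. Lef1 then stood at a log2 fold change of 1.28 (edgeR adjusted p = 0.00625) and Foxp1 at 1.16 (edgeR adjusted p = 0.00485). Lef1 was also called without NR replicate 14 alone (1.25, edgeR adjusted p = 0.0375).

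The second comparison set R against IgG and shares its responders with the first. The same 7 genes were called higher and none lower, beside 14.3% of all genes called higher and 0.641% called lower. For 6 genes both responders lay above all 8 IgG tumors, against 19.3% of all genes, and Klf2 was the called gene that overlapped. The log2 fold changes were 3.78 ± 0.28 for Ccr7, 3.75 ± 0.24 for Bach2, 2.33 ± 0.29 for Il7r, 2.20 ± 0.32 for S1pr1, 2.17 ± 0.29 for Satb1, 1.99 ± 0.19 for Tcf7 and 1.64 ± 0.36 for Klf2 (edgeR adjusted p between 1.05e-08 and 0.00277). Lef1 at 1.08 ± 0.41 (edgeR adjusted p = 0.0662) and Foxp1 at 1.08 ± 0.43 (edgeR adjusted p = 0.0837) did not pass. Without IgG replicate 1 both did, at 1.26 and 1.40 (edgeR adjusted p = 0.00957 and 0.000790), and all 9 were called without the 3 tumors of high mitochondrial share, beside 15.7% of all genes. Klf2 again lost its call without R replicate 15, at 0.75 (edgeR adjusted p = 0.445), and Bach2 was then at 2.86. The other 6 stayed called without it, beside 6.28% of all genes.

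**Figure D2:**
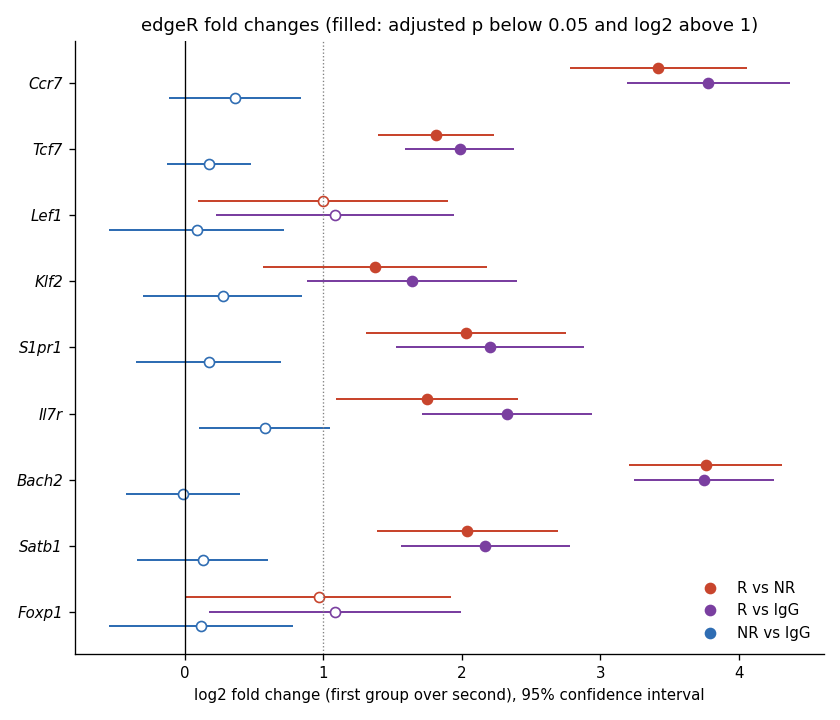
Log2 fold changes (x axis) of the 9 genes in the 3 comparisons with 95% confidence intervals, filled where the gene was called. Filled points are absent from NR vs IgG, and the open R points are those of Lef1 and Foxp1.

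The third comparison asked whether aPD-1 without response differed from IgG. The authors counted as NR those aPD-1 tumors in which CD8 staining was similar to that of IgG. Similar T cell RNA in the 2 groups is therefore not independent of that choice, and the values do not measure the effect of aPD-1. None of the 9 genes was called, beside 0.0% of all genes by edgeR. At an unadjusted p below 0.05 the count was 1 of the 9, against 694 of the 18251 genes or 3.8%. DESeq2 called none of the 9 and 4 genes in all, or 0.013%. Without the 3 tumors of high mitochondrial share none of the 9 was called either, beside 0.00561% of all genes. All 9 overlapped between the groups, and 0.0164% of all genes had every NR tumor above every IgG tumor. Il7r had the largest log2 fold change, 0.58 ± 0.22 with a 95% confidence interval of 0.10 to 1.05 (edgeR unadjusted p = 0.0197, adjusted p = 0.987). The other 8 lay between -0.01 for Bach2 and 0.36 for Ccr7, and their intervals all included 0. The interval of Bach2 ran from -0.43 to 0.40 and that of Tcf7 from -0.13 to 0.48, so a doubling of either is outside them. For Lef1 and Foxp1 the upper ends were 0.71 and 0.78.

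The 2 responders were not alike across the set, as the plot of each responder over the NR mean shows. R replicate 15 held 2.51 times the Klf2, 2.51 times the Bach2, 2.16 times the Foxp1 and 1.56 times the S1pr1 of R replicate 16. Ccr7, Tcf7, Lef1 and Satb1 differed less, by 1.15 to 1.28 times, and Il7r was at 0.66 times. The 3 CD3 subunits were nearly level between the responders, at 68.0 CPM summed in replicate 15 and 67.4 CPM in replicate 16. The 10 B cell markers were not, at 1484 and 386.1 CPM summed, nor were the 10 endothelial markers, at 465.3 and 254.9. With 1 tumor each these are values without a test.

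**Figure D3:**
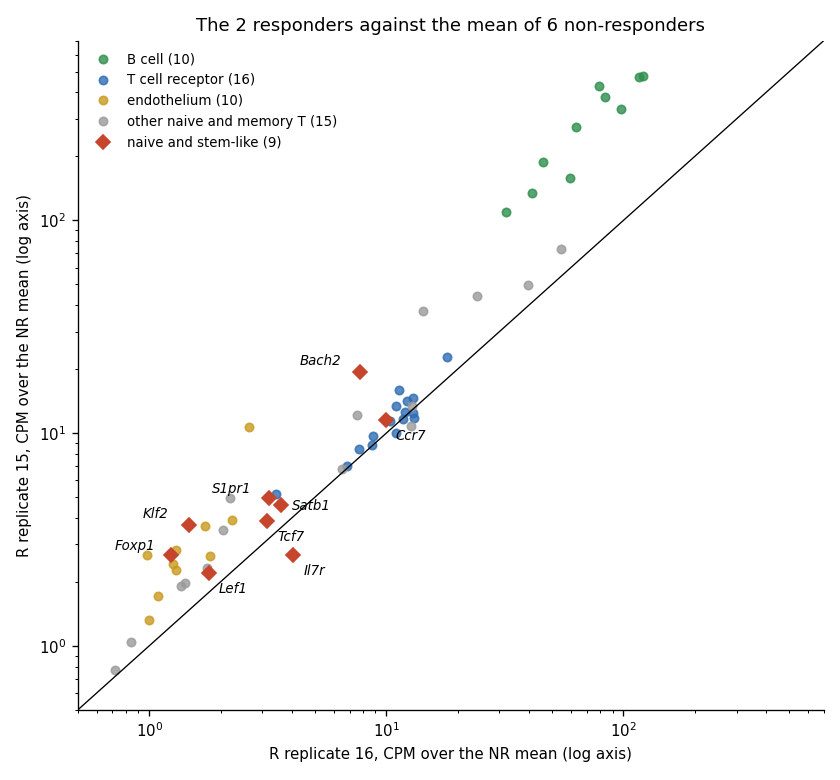
CPM over the mean of 6 NR tumors in R replicate 15 (y axis) against R replicate 16 (x axis), both log axes, for the 9 genes (diamonds) and for B cell, T cell receptor, endothelial and other naive and memory T cell genes (circles), with a line of equality. The T cell receptor genes lie near the line, the B cell markers lie well above it, and Bach2, Klf2 and Foxp1 lie above it while Il7r lies below.

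Per kilobase of the longest coding transcript, the scale on which levels of different genes may be compared, the order in the IgG tumors ran Klf2, Foxp1, S1pr1, Tcf7, Il7r, Lef1, Satb1, Ccr7 and Bach2. Klf2 stood at 6.90 ± 3.21 CPM per kilobase (SD, n = 8) and Bach2 at 0.211 ± 0.037. Neighbours in that order overlapped in range, except Ccr7 and Bach2. In the responders the means of Klf2, S1pr1 and Ccr7 were 21.5, 21.2 and 21.1 CPM per kilobase, but Klf2 was at 30.8 in R replicate 15 and 12.3 in R replicate 16, where S1pr1, Ccr7, Il7r and Tcf7 all stood above it. Ccr7, next to last by its mean in IgG and NR, was at 22.7 and 19.6 CPM per kilobase, while Bach2 stayed last at 2.84 CPM per kilobase.

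Markers of several other cell types, though not of all, also differed between R and NR, beside 12.5% of all genes called higher. All 16 T cell receptor and co-receptor genes were called higher than NR, at log2 fold changes of 2.11 to 4.35, and their summed level was 476.3 and 556.4 CPM in R against 32.7 to 98.0 in NR. All 10 B cell markers were called, at 6.14 to 8.20, with summed levels of 3.01 to 8.15 CPM in NR and 2.14 to 9.50 in IgG. All 5 genes listed for high endothelial venules, the vessels through which naive T cells enter lymph nodes, and for lymph node stroma were called, led by Glycam1, which was at 30.6 and 183.7 CPM in R, at most 0.580 in NR and at most 1.02 in IgG. Of the other lists, 6 of 10 dendritic, 3 of 10 endothelial, 3 of 5 NK and 1 of 8 macrophage markers were called higher, and 4 of the 5 tested of 7 epithelial markers. The macrophage count is near the share over all genes and is no result about those cells. The part of the listed cell types in the levels of the 9 genes was not tested.

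To set each gene beside T cell abundance, its log2 CPM was taken relative to the mean of Cd3d, Cd3e and Cd3g, subunits of the T cell receptor complex. That mean was 4.44 ± 0.00095 (SD, n = 2) in R, 1.05 ± 0.56 (n = 6) in NR and 0.38 ± 0.61 (n = 8) in IgG. In R replicates 15 and 16, Cd3d was at 23.3 and 25.3 CPM and Cd3g at 30.6 and 27.9, so single subunits varied more than their mean. The lowest counts in a tumor were 9 for Cd3e, 18 for Cd3d and 45 for Cd3g, so the reference was thinly counted outside R. Relative to the mean of the 3, Ccr7 and Bach2 overlapped between R and NR. Ccr7 was at 0.95 ± 0.15 in R and 0.82 ± 0.32 in NR (difference 0.13, exact two-sided permutation p = 0.607), and Bach2 at 0.08 ± 0.94 and -0.13 ± 0.47 (difference 0.21, exact two-sided permutation p = 0.643). Satb1 was lower by 1.29 with overlap (exact two-sided permutation p = 0.143). The other 6 were lower in both responders than in every NR tumor, by 1.31 (S1pr1), 1.56 (Tcf7), 1.61 (Il7r), 2.12 (Klf2), 2.32 (Lef1) and 2.49 (Foxp1), each at an exact two-sided permutation p = 0.0357, the smallest that 2 against 6 tumors allow. Of all genes, 90.4% were likewise lower per CD3 in both responders, so the count of 6 of 9 is below the background and is no result about these genes.

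**Figure D4:**
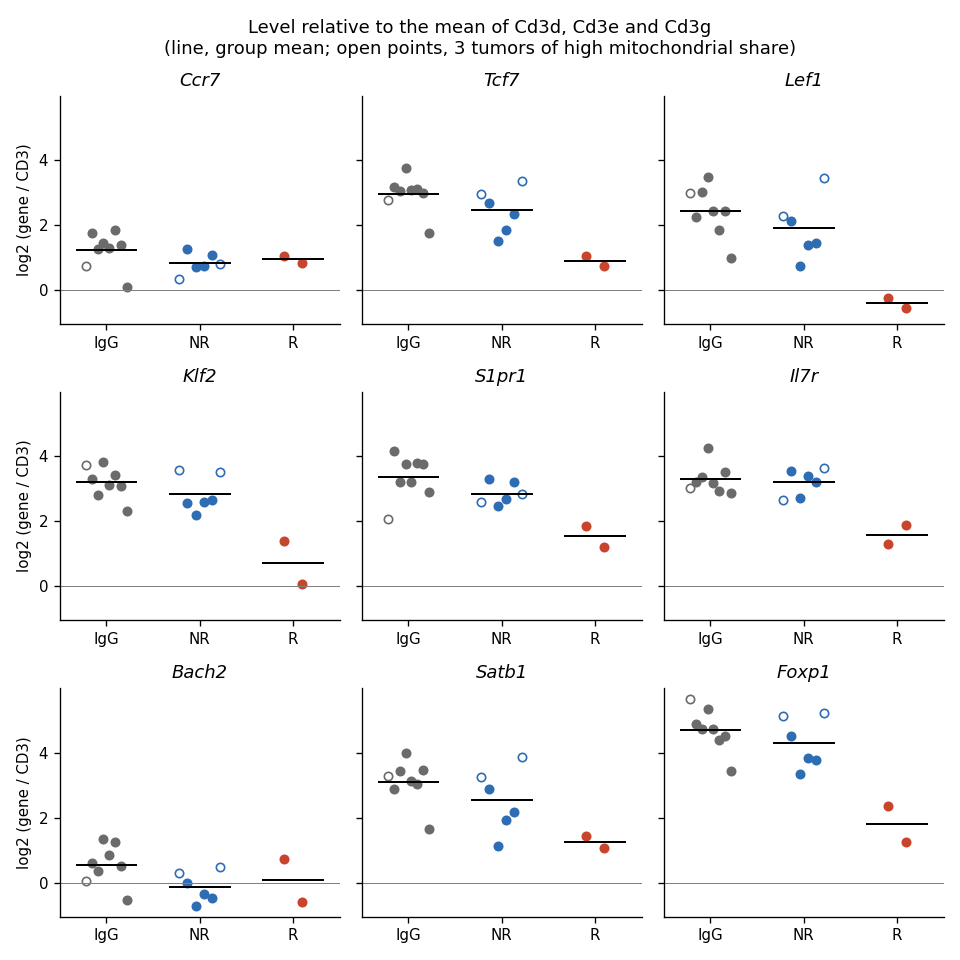
Log2 ratio of each gene to the mean of the 3 CD3 subunits (y axis) in each tumor by group, with lines at group means and open points for tumors of high mitochondrial share. Ccr7 and Bach2 overlap between R and the other groups, and Lef1 is the only gene with a group mean below 0 in R.

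Against IgG the same ratio was lower in both responders than in all 8 IgG tumors for 7 genes, beside 90.7% of all genes. Ccr7 (difference -0.28, exact two-sided permutation p = 0.489) and Bach2 (-0.48, p = 0.444) again overlapped. Between NR and IgG all 9 overlapped, beside 0.00548% of all genes that lay lower in every NR tumor. Differences ran from -0.68 for Bach2 (exact two-sided permutation p = 0.0463 among 9 tests) to -0.10 for Il7r. The CD3 mean itself was higher in NR by 0.67 (exact two-sided permutation p = 0.0593), and a gene of equal CPM in both groups is lower per CD3 by about as much. The log2 fold change of Bach2 without that reference was -0.01. The share of all genes below that p per CD3 was not computed, so these differences are no result about the 9 genes. No p was adjusted over these 9 genes alone, since they were chosen with results known.

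Ligands and partners of the receptors were read from a list of 19 genes, of which 18 were tested. Of these, 7 were called higher than NR and none lower, beside 12.5% of all genes called higher. The CCR7 ligands were highest in the responders. Ccl19 was at 19.8 and 29.7 CPM in R, at most 0.329 in NR and at most 0.182 in IgG. Ccl21a was at 64.2 and 157.3 CPM in R at most 3.11 in NR and at most 0.5996 in IgG, but near-identical copies of both genes leave their counts uncertain. Il7, the ligand of IL7R, was at 2.33 and 3.19 CPM in R and 0.406 to 1.77 in NR (log2 fold change 1.27 ± 0.39, edgeR adjusted p = 0.0288). Its shared receptor chain Il2rg rose by 1.17 ± 0.25 (edgeR adjusted p = 0.00293), and Jak1, Jak3, Stat5a and Stat5b, which relay the signal, passed the adjusted p at log2 fold changes of 0.40 to 0.92, under the size needed for a call. Spns2, the exporter of sphingosine-1-phosphate, rose by 1.89 ± 0.44 (edgeR adjusted p = 0.00546), while the lyase Sgpl1 was at -0.04 ± 0.19 (edgeR adjusted p = 0.931). Tle4, a corepressor of TCF1 and LEF1, rose by 1.39 ± 0.20 (edgeR adjusted p = 0.000104), Tle1 passed the adjusted p in the other direction at -0.49 ± 0.11 (edgeR adjusted p = 0.00287), and Ctnnb1 (beta-catenin) was at -0.03 ± 0.13 (edgeR adjusted p = 0.928).

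Of 15 other genes of naive and memory T cells, 11 were called higher than NR and none lower, beside 12.5% of all genes called higher. The median log2 fold change of the 15 was 2.73. Rasgrp2 (5.09), Ltb (4.69), Cd27 (3.71), Cd28 (3.55) and Slamf6 (3.29) were among those called. Foxo1, a factor upstream of Klf2 and Il7r, rose by 1.84 ± 0.27 (edgeR adjusted p = 0.000105). Igfbp4 and Actn1 did not pass, at -0.09 and -0.42.

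Paralogs were read to see how other members of the same gene families behaved. Of 13, 12 were tested, and 3 were called higher than NR and none lower, beside 12.5% of all genes called higher. The median log2 fold change of the 12 was -0.06. The 3 were S1pr4 (4.64 ± 0.38) and S1pr3 (2.54 ± 0.52), other receptors of sphingosine-1-phosphate, and Foxp3 (1.93 ± 0.38), the factor of regulatory T cells. Tcf7l1 (-0.12), Tcf7l2 (-0.60), Klf4 (-0.59), Klf6 (0.01), S1pr2 (-0.23), Bach1 (0.01), Foxp2 (-0.98) and Foxp4 (0.21) did not pass.

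Among 15 tested genes of resident and effector T cells, 6 were called higher and 1 lower than NR, with a median log2 fold change of 0.89. Over all genes, 12.5% were called higher and 0.663% lower. Tox (4.16 ± 0.61), Itgae (2.16 ± 0.35), Tbx21 (2.10 ± 0.45), Cd69 (1.87 ± 0.26), Cxcr6 (1.70 ± 0.48) and Itga1 (1.36 ± 0.31) were higher, and Cx3cr1, also a gene of macrophages, was lower at -1.37 ± 0.39. Prdm1 (-0.25 ± 0.35), Runx3 (0.44 ± 0.34), Id2 (0.53 ± 0.23) and Klrg1 (0.69 ± 0.47) did not pass. The cytotoxic genes Gzmb (0.89 ± 0.56) and Prf1 (0.66 ± 0.58) and the inhibitory receptors Pdcd1 (1.16 ± 0.57) and Havcr2 (-0.02 ± 0.19) did not pass against NR, and each of the 4 was higher in R replicate 16 than in replicate 15. Gzmb was at 20.6 CPM in replicate 15 and 66.6 in replicate 16. Against IgG, Pdcd1 (1.84 ± 0.53, edgeR adjusted p = 0.0175) and Gzmb (1.67 ± 0.52, edgeR adjusted p = 0.0264) were called higher, and Prf1 (1.37 ± 0.53, edgeR adjusted p = 0.0768) and Havcr2 (0.19 ± 0.19, edgeR adjusted p = 0.523) did not pass.

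Over the 14 IgG and NR tumors, where no responder sets the range, the 9 genes did not vary as 1 group. Pearson's r of log2 CPM between pairs ran from 0.91 for Lef1 and Satb1 to -0.70 for S1pr1 and Satb1, a pair at -0.42 without the 3 tumors of high mitochondrial share. Tcf7, Lef1, Klf2, Satb1 and Foxp1 had pairwise r of 0.44 to 0.91. In the 3 tumors of high mitochondrial share Tcf7, Satb1 and Foxp1 lay above all 11 others while S1pr1 lay below all of them. The other 5 genes overlapped. The share of all genes so placed was not computed, so these positions are no result about the 9 genes. Without those 3 tumors the r of Satb1 with Foxp1 fell from 0.75 to 0.22 and that of Klf2 with Satb1 changed from 0.44 to -0.39, while Lef1 with Satb1 remained at 0.82. These r describe tumors that share a platform and 2 treatments.

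Each gene was then set against the mean log2 CPM of 4 marker lists (CD3 subunits, B cell, endothelial and dendritic) over the same 14 tumors, 36 relations in all, of which 6 passed a permutation test (100000 permutations) with Benjamini-Hochberg adjustment over the 36. S1pr1 followed the 10 endothelial markers most closely (r = 0.87, rho = 0.86, permutation adjusted p = 0.00288, permutation p of rho = 0.00015). It did so within IgG (r = 0.87, n = 8, exact permutation p = 0.00580), within NR (r = 0.91, n = 6, exact permutation p = 0.00972), without the 2 tumors farthest from the median (r = 0.88) and without the 3 tumors of high mitochondrial share (r = 0.89). S1pr1 also followed the dendritic markers (r = 0.80, rho = 0.72, permutation adjusted p = 0.0135, permutation p of rho = 0.00474), with r = 0.87 within IgG and 0.70 within NR. Ccr7 followed the endothelial markers (r = 0.72, rho = 0.78, permutation adjusted p = 0.0230, permutation p of rho = 0.00158), with r = 0.63 within IgG and 0.87 within NR.

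Il7r followed the CD3 subunits (r = 0.77, rho = 0.78, permutation adjusted p = 0.0199, permutation p of rho = 0.00189), with r = 0.68 within IgG and 0.67 within NR, which did not pass alone (exact permutation p = 0.0618 and 0.140). Tcf7 did not pass with the CD3 subunits (r = 0.28, rho = 0.35, permutation adjusted p = 0.563), nor did Lef1 (r = 0.07, rho = 0.17, permutation adjusted p = 0.896). Satb1 ran against the endothelial markers (r = -0.75, rho = -0.71, permutation adjusted p = 0.0206, permutation p of rho = 0.00535), at -0.76 within IgG and -0.75 within NR. Lef1 did too (r = -0.68, rho = -0.69, permutation adjusted p = 0.0485, permutation p of rho = 0.00828), at -0.65 within IgG and -0.79 within NR. Without the 3 tumors of high mitochondrial share these were -0.63 and -0.48 and no longer passed. Without the 2 tumors farthest from the median of each marker list, S1pr1 with the endothelial markers was the one relation of the 6 that still passed (permutation adjusted p = 0.00828). The others did not pass over the remaining 12 tumors, at r = 0.70 for S1pr1 with the dendritic markers, 0.67 for Il7r with CD3, and 0.73, -0.61 and -0.56 for Ccr7, Satb1 and Lef1 with the endothelial markers (permutation adjusted p between 0.114 and 0.251). None of the 9 passed with the B cell markers, Bach2 included (r = 0.33, rho = 0.42, permutation adjusted p = 0.511).

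**Figure D5:**
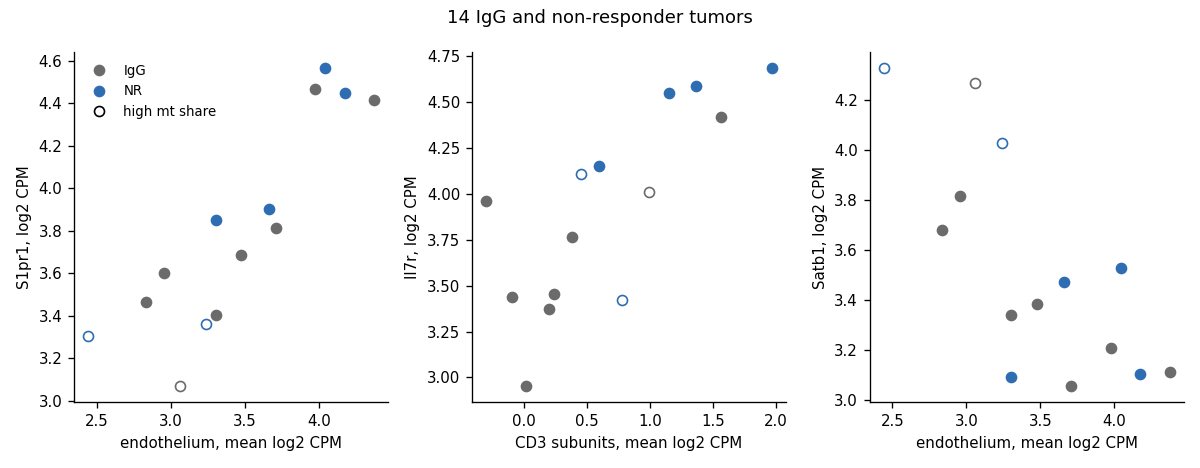
Log2 CPM of S1pr1, Il7r and Satb1 (y axes) against the mean log2 CPM of endothelial markers or CD3 subunits (x axes) in 8 IgG and 6 NR tumors, open where the mitochondrial share was high. S1pr1 and Il7r rise with their marker lists, and the 3 open points hold the 3 highest values of Satb1.

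The genes most like each member over the 14 tumors, by Pearson's r of log2 CPM, are given as a description. They were Fbln7 (0.89), F10 and Fbln2 for Ccr7, Itgb3 (0.95), Nid1 and Wnt2 for S1pr1, and Aldoc (0.95), Cxcl16 and H2-K1 for Il7r. For Klf2 they were Gpsm3 (0.95), Nfkbie and Trbc1, the last a constant segment of the T cell receptor. For Tcf7 they were Mef2d (0.94), Rnf44 and Tbc1d22b, and for Foxp1 Runx3 (0.97) and Plk3. For Lef1 they were Osr1 (0.96), Zfp827 and Gpi1, and for Satb1 Nisch (0.96) and again Zfp827. Bach2 had no near match, with Snx3 highest at 0.81.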

How the data were processed

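Poly-A RNA of 16 tumors was sequenced. The authors aligned reads with STAR 2.6 to GRCm38 and used RSEM 1.3.0 with Ensembl 91 genes for quantification, and deposited 1 table of expected counts with a column per tumor. Such estimates divide reads shared by similar genes, and 7.84% of the values were not whole. They were rounded, and 92 entries that name no gene (at most 185 counts in a tumor) were left out. Symbols and positions came from GENCODE mouse release 21, which matched 53360 of 53465 identifiers.

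Counts were tested in R 4.3.3 with edgeR 4.0.16 (low count filter over the 3 groups, TMM scaling, robust quasi-likelihood fit of all 16 tumors, Benjamini-Hochberg adjustment over 18251 genes). DESeq2 1.42.0, which the authors used, was an alternative. CPM were computed on TMM-scaled totals, and log2 CPM with a prior count of 2. Where symbols had several identifiers, the one with the highest total was used. Tumors of a group were separate mice. No 2 tumors were near copies, with a chi-square per degree of freedom of at least 15.2 for any pair. On simulated counts, the test of 2 against 6 tumors found 88% of genes given 4-fold and 62% of those given 2-fold changes, and 3.85% of the genes that passed were unchanged. Found meant an adjusted p below 0.05 alone, without the fold change that a call required, so these are not rates of calls. Far fewer genes were changed in the simulation than were called between R and NR, and genes of the lowest levels were not changed. The 9 genes were given by name, and they and the gene lists were chosen with earlier results of these data known. Named genes are the 9, the genes of those lists, and the 3 tested genes with the highest r to each of the 9, of which some are not reported here. Levels per CD3 carry unadjusted exact p-values, where adjustment over the 9 genes had been planned. Alternatives were the test, scaling, filter, groups in the fit, prior count, T cell reference and leaving out tumors. Spatial data, staining and the authors' own comparisons were not used here.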

Additional observations from a re-analysis of the deposited data

Results flagged for a closer look

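Within groups of 4 to 10 tumors, the highest or lowest value was set against the range of its group for the CPM and the level per CD3 of the 9 genes, 36 groups in all. Chance alone marks about 1 in 20 such groups. In 3 groups 1 tumor stood apart, each time a tumor of high mitochondrial share. Klf2 was at 26.6 CPM in IgG replicate 1, with the next IgG tumor at 14.7 CPM. Foxp1 was at 101.1 CPM in the same tumor, with the next at 34.7 CPM. Lef1 was at 14.8 CPM in NR replicate 14, with the next NR tumor at 8.24 CPM. The mitochondrial share was 7.60% in IgG replicate 1 and 5.73% in NR replicate 14, and its part in these values was not tested.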

How the results depend on the processing

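No paired analysis was possible because the 3 groups share no replicate numbers. With 2 responders, every R value rests on those tumors, and where 1 was left out the remaining tumor was taken to vary like those of IgG and NR. Under DESeq2, other size factors, either other filter and fits of only the 2 groups, calls over all genes ran from 1617 to 2576 against NR. Against IgG they ran from 1874 to 3182. Both were lowest with a filter of at least 10 counts in at least 8 tumors and highest with no low count filter. Called members stayed at 7 against NR and against IgG under each of these. Leaving out 1 tumor gave 6 to 8 against NR and 6 to 9 against IgG, and leaving out the 3 tumors gave 9 in both. Of 450 fold changes of single genes under these alternatives, 441 kept their side of the threshold, 2 lost a call (Klf2 without R replicate 15) and 7 gained one (Lef1 and Foxp1). Signs changed in 12, all between NR and IgG, where Bach2, Lef1, Satb1 and Foxp1 had fold changes near 0 and no calls, with values on the other side of 0 from -0.17 for Lef1 to 0.05 for Bach2. Over all genes, calls against NR fell from 2410 to 923 without R replicate 15, and against IgG from 2729 to 1243. Between NR and IgG they rose from 0 to 4 by DESeq2, 2 without IgG replicate 1 and 1 without the 3 tumors of high mitochondrial share.

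Levels per CD3 at an unadjusted exact p below 0.05 numbered 6 against NR and 7 against IgG. Leaving out 1 tumor gave 0 to 6 and 0 to 7, since 1 responder cannot reach that p. They numbered 0 against NR without the 3 tumors of high mitochondrial share, where 2 against 4 tumors cannot reach it either. Between NR and IgG there was 1, with 0 to 3 when 1 tumor was left out and 2 without the 3 tumors. The cause of these shifts in number was not tested. For NR and IgG the share of all genes at that p was not computed, so these counts are no result about the members. Relations to marker lists that passed fell from 6 to 1 without the 2 tumors farthest from the median, with fewer tumors, and S1pr1 with endothelium was the one that passed. Klf2 with the dendritic markers went from r = -0.01 to 0.77 without the 3 tumors. With the CD3 subunits, r rose without them for Klf2 (0.61 to 0.81), S1pr1 (0.51 to 0.75), Ccr7 (0.65 to 0.76) and Foxp1 (0.34 to 0.55). It also rose for Il7r (0.77 to 0.83) and Tcf7 (0.28 to 0.34), but not for Lef1, Bach2 or Satb1 (-0.13 to -0.33). The cause of these changes was not tested. The alternative without these 3 tumors was chosen after seeing the data.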
